A study of Mus musculus with 24 samples.

Results

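The genes that build the seal between epithelial cells were followed through 24 mouse bladder tumors. Included were 10 genes, chosen by symbol from a table of 53465 genes: the claudins Cldn1, Cldn3, Cldn4, Cldn6, Cldn7, Cldn8 and Cldn23, occludin (Ocln), and the scaffold genes Tjp1 and Tjp3. The tumors came from BURP lines, which are allografts of bladder carcinomas raised in C57BL/6NTac mice. The donor mice drank water with 0.1% of the bladder carcinogen BBN from 8 weeks of age for at most 36 weeks, and their tumors were passed under the skin of hosts of the same strain and sex. There were 8 lines with 3 tumors each, and no untreated bladder was among the samples. The basal/squamous (Ba/Sq) subtype had 6 lines, of which BURP-18BaSq, BURP-17BaSq and BURP-12BaSq had a male donor. BURP-25BaSq, BURP-24BaSq and BURP-21BaSq had a female one. BURP-16SR (stroma-rich) and BURP-19NE (neuroendocrine-like, NE-like) had male donors. Stroma-rich and NE-like thus rest on 1 line each, and every line stems from 1 donor, so that subtype and line cannot be told apart for them.

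Tight junctions close the gap between neighboring epithelial cells near their apical side. Claudins are membrane proteins whose chains of contacts form the junction strands and decide which ions pass, while occludin is a further strand protein that is not a claudin. The zonula occludens proteins encoded by Tjp1 and Tjp3 bind the claudins from inside the cell and tie them to actin. In the bladder, these junctions keep urine out of the tissue, and loss of claudins is a known part of the change from an epithelial to a mesenchymal state.

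RNA totals ran from 9295747 to 25370356 counts per tumor, and levels are given as CPM, the count divided by the TMM-scaled library size. The lowest level that 3 counts allow was between 0.106 and 1.34 CPM per tumor. The tumors of the Ba/Sq lines expressed the basal keratins Krt5 and Krt14 throughout, whereas the urothelial plaque gene Upk3a stayed at or below 0.383 CPM in every tumor, and Upk1a and Upk2 averaged 0.594 and 0.913 CPM in the Ba/Sq tumors. Upk1b averaged 2.49, Upk3b 1.31 and Krt20 13.4 CPM there. The sum of these 6 urothelial markers had a median of 4.14 CPM in the Ba/Sq tumors (0.735 to 208), and Upk2 was called higher in BURP-25BaSq than in the other Ba/Sq lines (log2 fold change 4.49, SE 0.74, edgeR adjusted p = 0.00797). A pair of tumors labelled BURP-25BaSq stood apart. C102-M30 had the highest urothelial sum, with Krt20 at 196 CPM, and in it 68.0% of the counts fell on ribosomal RNA genes and the RNA Gm26917, which left 3131051 other counts. In C102-M1, the levels of the 10 genes lay nearer to BURP-21BaSq than to its own line, with a root mean square difference of 1.004 against 2.51 on the log2 scale. Both were kept as labelled, and results without them are given where they differ.

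Averaged over the Ba/Sq tumors, Cldn4 had the highest level of the set per kilobase, although Tjp1 was above it in BURP-12BaSq. Cldn4, which makes a tight strand with low ion passage, ran from 15.5 to 468 CPM over the 18 Ba/Sq tumors with a median of 145. Per kilobase of exon, which is the scale on which genes can be compared, Cldn4 averaged 103 CPM per kb (SD 78.3, n = 18). It was followed by Tjp1 at 37.8 (SD 19.3), Cldn1 at 20.99 (SD 15.5), Cldn3 at 15.8 (SD 17.7) and Cldn7 at 13.9 (SD 15.5). Below them were Ocln at 6.38, Tjp3 at 5.28, Cldn23 at 5.17 and Cldn8 at 3.30 CPM per kb, and Cldn6 was last at 0.340. The SDs show that neighbors in this order overlapped, and with the longest transcript as the length Cldn7 passed Cldn3. In the 3 tumors of BURP-12BaSq, Tjp1 was at 16.1, 16.8 and 16.4 CPM per kb, and Cldn4 was lower at 11.6, 8.56 and 10.3. Tjp1 was also first in BURP-16SR and BURP-19NE, at 26.2 (SD 2.80, n = 3) and 39.9 (SD 10.1, n = 3) CPM per kb. Second were Cldn4 in BURP-16SR at 13.4 (SD 7.72) and Cldn6 in BURP-19NE at 1.98 (SD 0.229).

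**Figure D1:**
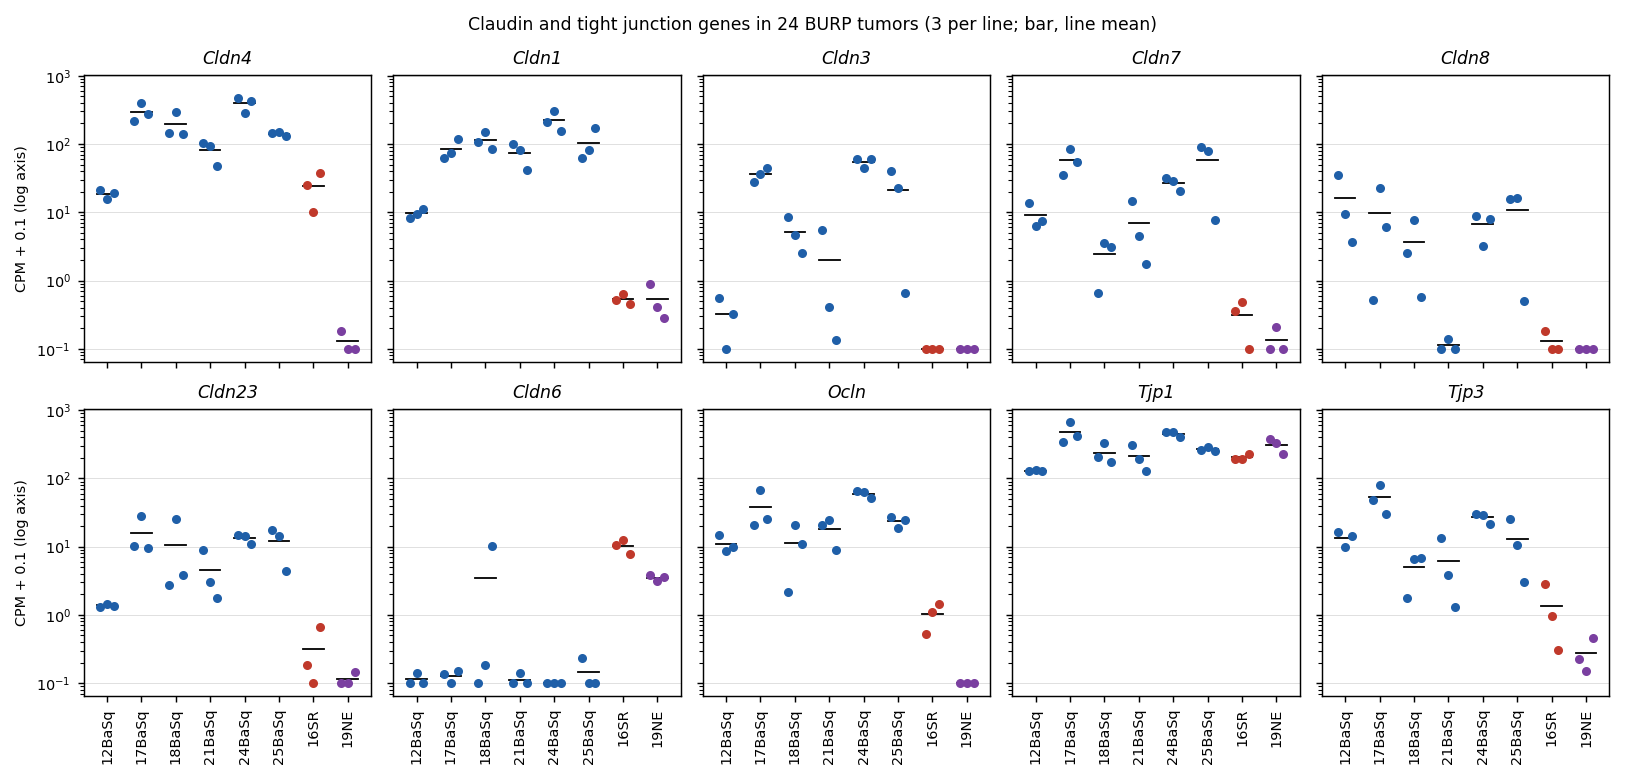
Level of each gene in each of the 24 tumors, as CPM + 0.1 on a log axis, by BURP line. Points are tumors, black bars are line means of 3 tumors, and points at 0.1 are tumors with no count. Tjp1 lay between 126 and 671 CPM in every tumor, whereas Ocln and Cldn3 had no count in any BURP-19NE tumor.

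The genes lie on 8 chromosomes of mouse build GRCm38. Cldn4 (ENSMUSG00000047501, chr5:134945119-134946934, minus strand) and Cldn3 (ENSMUSG00000070473, chr5:134986214-134987472, plus strand) are neighbors, 39279 bases apart with no coding gene between them. Cldn1 (ENSMUSG00000022512) is at chr16:26356642-26371841 and Cldn8 (ENSMUSG00000050520) at chr16:88560828-88563183, both on the minus strand. Cldn6 (ENSMUSG00000023906, chr17:23679249-23682446, plus strand) is 137 bases from Cldn9, which had at most 4 counts in a tumor. The others are Cldn7 (ENSMUSG00000018569, chr11:69964779-69967885, plus strand), Cldn23 (ENSMUSG00000055976, chr8:35824712-35826559, minus strand), Ocln (ENSMUSG00000021638, chr13:100496507-100552718, minus strand), Tjp1 (ENSMUSG00000030516, chr7:65296165-65527781, minus strand) and Tjp3 (ENSMUSG00000034917, chr10:81273207-81291581, minus strand). Tjp3 shares 40 bases with Apba3 on the other strand, which had from 11.8 to 22.9 CPM. The study's libraries marked the second strand with dUTP, and whether the counts used the strand is not stated. If they did not, reads in those bases may be assigned to either gene.

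RefSeq promoters of build GRCm38.p6 were matched for 8 of the 10 genes, at 11 start sites. The 250 bases before the start site are shown for the neighbors Cldn4 and Cldn3 and for Ocln, which were lower in both BURP-19NE and BURP-16SR, and for Tjp1, which was called in neither. Capitals mark the letters CACCTG on either strand (CAGGTG on the other), the E-box variant that the repressors Snai1, Snai2, Zeb1 and Zeb2 are known to bind. They are given 5′ to 3′ along the gene's strand, at chr5:134946935-134947184 (minus), chr5:134985964-134986213 (plus), chr13:100552719-100552968 (minus) and chr7:65371245-65371494 (minus):
Cldn4: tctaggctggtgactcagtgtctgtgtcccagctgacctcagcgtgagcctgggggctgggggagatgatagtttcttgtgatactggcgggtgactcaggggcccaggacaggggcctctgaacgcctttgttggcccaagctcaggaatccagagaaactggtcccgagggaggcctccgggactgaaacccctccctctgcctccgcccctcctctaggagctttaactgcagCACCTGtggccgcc
Cldn3: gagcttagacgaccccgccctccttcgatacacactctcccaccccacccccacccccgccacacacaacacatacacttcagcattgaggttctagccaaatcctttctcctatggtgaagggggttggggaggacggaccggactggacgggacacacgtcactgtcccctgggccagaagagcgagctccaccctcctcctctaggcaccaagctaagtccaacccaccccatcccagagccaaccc
Ocln: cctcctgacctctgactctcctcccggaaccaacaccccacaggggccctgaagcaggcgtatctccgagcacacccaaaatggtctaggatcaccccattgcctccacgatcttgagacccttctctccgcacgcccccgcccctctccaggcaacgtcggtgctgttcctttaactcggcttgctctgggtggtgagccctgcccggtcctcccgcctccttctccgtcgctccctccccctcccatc
Tjp1: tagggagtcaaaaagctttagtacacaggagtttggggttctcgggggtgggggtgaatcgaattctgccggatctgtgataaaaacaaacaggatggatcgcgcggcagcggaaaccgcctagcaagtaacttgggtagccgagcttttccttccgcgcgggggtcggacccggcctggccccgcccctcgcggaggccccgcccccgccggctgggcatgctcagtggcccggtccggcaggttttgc

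In the Cldn4 promoter the letters CACCTG began 14 bases before the start site, whereas the windows of Cldn3, Tjp1 and this start site of Ocln held none. The second start site of Ocln, not shown, held them at 213 and 68 bases. The Tjp1 window belongs to a start site inside the span of the gene given above. What a gene's window holds thus depends on the start site. Of the 11 start sites 6 held the letters, at 1 or more start sites of Cldn4, Cldn6, Cldn7, Ocln and Tjp3, against 17.2% of all 32851 mouse promoter windows of the same length. The letters AACNNGTT, bound by grainyhead proteins, were in none of the 11 windows and in 3.64% of all windows. The window of Cldn6, a gene that was higher in BURP-16SR, held the letters too, and that of Cldn1 did not. A match is a description of the letters, and no match says only that they are not within these windows.

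In BURP-19NE, 8 of the 10 genes were lower than in the Ba/Sq lines and none was called higher. With line as a random effect in limma-voom, in which tumors of 1 line had an estimated correlation of 0.496, none of the 8 was called (adjusted p from 0.0975 to 0.653), and Cldn6 was called higher (log2 fold change 5.84, adjusted p = 0.000205). Cldn3, Cldn4, Cldn7, Cldn8, Cldn23 and Ocln had 0 to 2 counts each over the 3 tumors together, while Cldn6 RNA was present and the scaffold gene Tjp1 lay within the Ba/Sq range. A gene was called at an adjusted p under 0.05 (edgeR's quasi-likelihood test with Benjamini-Hochberg adjustment over all genes tested) and a fold above 2. By this rule 24.3% of the 20995 genes tested were called, 15% lower and 9.33% higher. The genes with 0 to 2 counts were tested through their Ba/Sq counts alone and could only come out lower. The 8 lower calls thus cannot be weighed against the 15%. The median log2 fold change was -9.09 for the 10 genes, -7.37 with genes of 0 to 3 counts at their ratio or bound, and -0.14 for all genes tested.

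Cldn4 had 0.0842 CPM in 1 BURP-19NE tumor and no count in the other 2, against 15.5 to 468 CPM in the Ba/Sq tumors. The groups did not overlap. With 2 counts in all in BURP-19NE, the Ba/Sq level was 6085 times higher (95% exact Poisson interval 1685 to 50249, which covers counting error only), and the adjusted p from edgeR was 9.92e-06. Ocln, the strand protein of another family than the claudins, had no count in any BURP-19NE tumor against 2.06 to 68.5 CPM (median 20.9) across the Ba/Sq lines. The fall from the Ba/Sq mean was at least 192-fold, taking 3 counts per tumor as the floor (edgeR adjusted p = 1.67e-05).

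Cldn1, a claudin needed for the barrier of the epidermis, was at 0.80, 0.316 and 0.182 CPM in BURP-19NE and between 8.13 and 301 CPM (median 82.6) in the Ba/Sq tumors. The highest BURP-19NE tumor was below the lowest Ba/Sq tumor, with a log2 fold change of -7.82 (SE 1.26, edgeR adjusted p = 7.14e-05). Tjp3, an epithelial relative of Tjp1, was at 0.126, 0.0527 and 0.363 CPM against 1.20 to 81.2 (median 13.7). These groups too were apart, with a log2 fold change of -6.65 (SE 1.40, edgeR adjusted p = 0.00100). Cldn7 and Cldn23 had 2 counts and 1 count in all of BURP-19NE and were between 0.549 and 90.1 and between 1.21 and 27.8 CPM in the Ba/Sq tumors. Their Ba/Sq levels were 875 times (242 to 7227) and 619 times (111 to 24437) higher, and neither overlapped.

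Cldn3 and Cldn8 had no count in BURP-19NE, but some Ba/Sq tumors were as low, so that these groups overlapped. Cldn3, whose product seals the junction much as that of Cldn4 does, was at least 142-fold below the Ba/Sq mean (edgeR adjusted p = 0.0181). That mean was 19.9 CPM and the Ba/Sq median 6.90. Cldn8, a claudin of urothelium and kidney ducts, was at least 55.4-fold below the Ba/Sq mean of 7.76 CPM (edgeR adjusted p = 0.0141), where the median was 4.83. The groups of 6 genes did not overlap and had BURP-19NE below, as did 8.5% of all genes tested. Cldn4, Cldn7, Cldn23 and Ocln among them could only come out lower, so that the 6 cannot be weighed against that share. Leaving out any one of the BURP-19NE tumors ended the calls of Cldn3 and Cldn8, with adjusted p between 0.0528 and 0.0688, and left 6 called.

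Tjp1, the zonula occludens scaffold found wherever tight or adherens junctions form, was at 383, 325 and 227 CPM in BURP-19NE. The Ba/Sq tumors were between 126 and 671 CPM (median 274), so that the ranges overlapped in full. The log2 fold change was 0.10 (SE 0.41, edgeR adjusted p = 0.868), and it was -0.12 without replicate 1 of BURP-19NE. Cldn6, a claudin of embryonic epithelia, was at 3.79, 3.0 and 3.45 CPM in BURP-19NE. Tumor P4 of BURP-18BaSq had 10.2 CPM, and the other 17 Ba/Sq tumors were at 0.134 CPM or below. The log2 fold change was 2.46 (SE 1.49, edgeR adjusted p = 0.209). Without that tumor of BURP-18BaSq it was 6.76 (edgeR adjusted p = 1.27e-08), and DESeq2 with all tumors gave 7.01 (adjusted p = 1.97e-18).

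**Figure D2:**
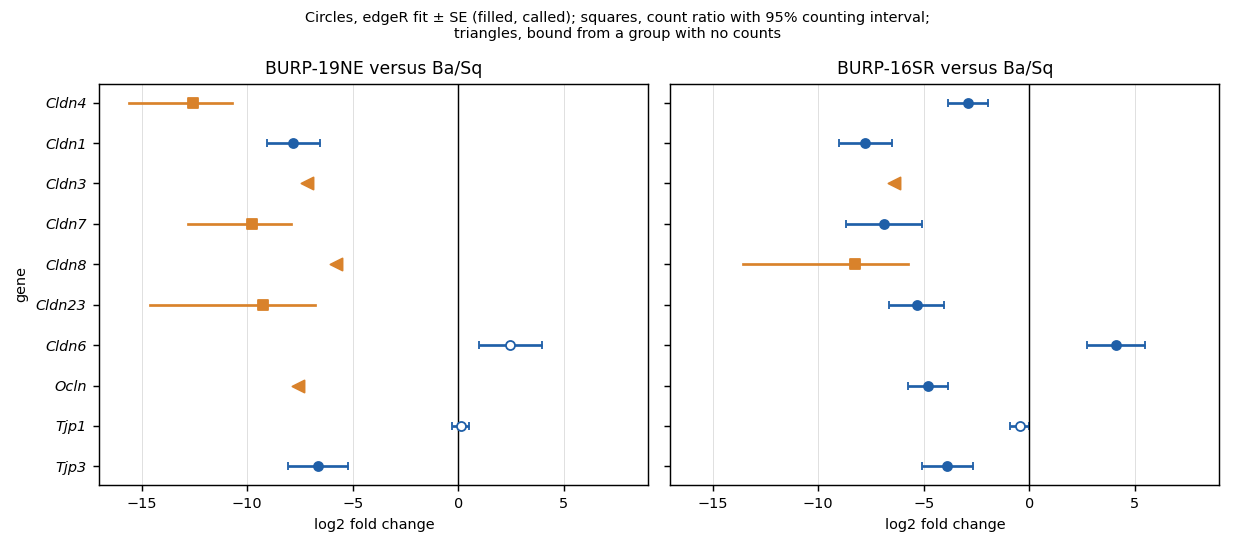
Log2 fold change of the 10 genes in BURP-19NE and in BURP-16SR against the 18 Ba/Sq tumors. Circles show the edgeR fit ± SE, filled where called. Squares show the ratio of levels with its 95% counting interval where the line had 1 to 3 counts. Triangles show the smallest fall from the Ba/Sq mean that a group without counts allows. Tjp1 stood near the zero line in both panels and Cldn6 to the right of it.

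These p-values compare 3 tumors of 1 line with 18 tumors of 6 lines. When counts were summed per line, so that BURP-19NE was 1 sample against 6, Cldn4 and Ocln were called lower (edgeR adjusted p = 0.0395 and 0.0176). The other 6 had adjusted p between 0.0522 and 0.209, in the same direction. In bulk RNA, fewer cells of a type and less RNA per cell cannot be told apart. The general epithelial markers were lower as well, 5 of 8 by the same test, with Epcam at 0 in all 3 BURP-19NE tumors and Cdh1 between 0.547 and 2.0 CPM. Their summed level was 316 to 430 CPM against 6207 to 13028 in the Ba/Sq tumors. The summed level of 5 skeletal muscle markers, none of them at 0 in BURP-19NE, was 520 CPM in its replicate 1 and 2.79 and 4.81 CPM in the other 2, against a Ba/Sq range of 0 to 30.8. The part of these cells in the result was not tested.

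In BURP-16SR, 8 of the 10 genes were lower than in the Ba/Sq lines, Cldn6 was higher, and Tjp1 was not called. With line as a random effect (estimated correlation 0.459), none of the 8 was called (limma adjusted p from 0.179 to 0.760) and Cldn6 was (log2 fold change 7.39, adjusted p = 4.03e-06), and with counts summed per line none of the 10 was (edgeR adjusted p from 0.0746 to 0.745). Of the 21028 genes tested 19.2% were called, 8.62% lower and 10.5% higher. Cldn1, Cldn3, Cldn7, Cldn8 and Cldn23 had at most 8 counts in any BURP-16SR tumor. They were tested through their Ba/Sq counts and could only come out lower. The 8 lower calls thus cannot be weighed against the 8.62%. The median log2 fold change was -5.06 for the 10 genes and -0.03 for all genes tested. Unlike in BURP-19NE, Cldn4 RNA was still present. It was at 24.9, 9.91 and 37.9 CPM, which overlapped with the lowest Ba/Sq tumors, at a log2 fold change of -2.90 (SE 0.96, edgeR adjusted p = 0.0304). Cldn1 was at 0.424, 0.542 and 0.35 CPM, below every Ba/Sq tumor, with a log2 fold change of -7.77 (SE 1.26, edgeR adjusted p = 0.000104). Whether the falls of Cldn4 and Cldn1 differed was not tested. The Ba/Sq tumors are the same as in the comparison with BURP-19NE, so that the 2 comparisons are not independent.

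Ocln was at 0.424, 1.01 and 1.33 CPM in BURP-16SR, under the lowest Ba/Sq tumor at 2.06, with a log2 fold change of -4.80 (SE 0.97, edgeR adjusted p = 0.000945). Cldn7 fell by 6.88 on the log2 scale (SE 1.78, edgeR adjusted p = 0.00719) and Cldn23 by 5.33 (SE 1.31, edgeR adjusted p = 0.00503), both without overlap. That made 4 genes whose groups did not overlap, with BURP-16SR below, as in 5.57% of all genes tested. Cldn1, Cldn7 and Cldn23 among them could only come out lower, so that the 4 cannot be weighed against that share. Tjp3 was at 2.71, 0.851 and 0.210 CPM and overlapped with the lowest Ba/Sq tumors, at a log2 fold change of -3.88 (SE 1.22, edgeR adjusted p = 0.0230). Cldn3 had no count in the line and was at least 85.7-fold below the Ba/Sq mean (edgeR adjusted p = 0.0321). Cldn8 had 1 count, which gives a Ba/Sq level 303 times higher (54.4 to 11962).

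Cldn6 was at 10.4, 12.2 and 7.76 CPM in BURP-16SR, above 17 of the 18 Ba/Sq tumors. The log2 fold change was 4.11 (SE 1.39, edgeR adjusted p = 0.0345). Without tumor P4 of BURP-18BaSq it was 8.40 (edgeR adjusted p = 4.85e-10), whereas DESeq2 with all tumors did not call it (4.16, adjusted p = 0.241). Tjp1 was at 189, 195 and 229 CPM, within the Ba/Sq range, with a log2 fold change of -0.46 (SE 0.44, edgeR adjusted p = 0.467). The count of 9 fell when any BURP-16SR tumor was left out. Without replicate 1, 2 or 3 of BURP-16SR, 5, 4 and 4 genes were called, all lower, and Cldn1, Cldn7, Cldn23 and Ocln were among them each time.

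Fibroblast markers differed among the 3 tumors of BURP-16SR. The summed level of 6 of them, none at 0, was 5770, 15145 and 468 CPM, against a median of 798 (155 to 7594) in the Ba/Sq tumors, and 3 of the 6 were called higher. Replicate 3, with the lowest sum, was below the Ba/Sq median for these markers, and it had 0.35 CPM of Cldn1 and 1.33 of Ocln. Cldn4 was highest in replicate 3 and lowest in replicate 2, the tumor with the highest fibroblast sum. The part of fibroblasts in the levels of Cldn1, Cldn4 and Ocln was not tested. The sum of the 8 general epithelial markers was 526 to 1137 CPM in BURP-16SR against 6207 to 13028 in the Ba/Sq tumors. Epcam, Cdh1, Krt5 and Krt14 were called lower, all 4 without overlap, and Krt7, Krt8, Krt18 and Krt19 were not called.

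A direct comparison of BURP-16SR with BURP-19NE separated them by Cldn4 and Cldn6. Both were higher in BURP-16SR without overlap. Against the 2 counts of BURP-19NE, the Cldn4 level was 785 times higher (95% exact Poisson interval 217 to 6483, for counting error only; edgeR adjusted p = 0.00126). Cldn6 had a log2 fold change of 1.67 (SE 0.27, edgeR adjusted p = 0.00581). With all 24 tumors in 1 fit, Cldn6 was not called (1.57, edgeR adjusted p = 0.256). Only 3 of the 10 genes had enough counts to be tested in these 6 tumors, Cldn4 through its counts in BURP-16SR alone. Of the 3 genes 2 were called, where 23.6% of the 17556 genes tested were (14.8% higher). As a gene that passes in this way can only be higher there, 2 of 3 cannot be weighed against that share. Of all genes 51.7% did not overlap, 23.4% with BURP-16SR above. The third, Tjp1, had a log2 fold change of -0.52 (SE 0.21, edgeR adjusted p = 0.0948). Ocln, not tested, was at 0.424 to 1.33 CPM in BURP-16SR and at 0 in all of BURP-19NE. Cldn1, not tested either, had means of 0.438 and 0.433 CPM.

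BURP-24BaSq and BURP-16SR are the lines in which the study followed growth under cisplatin, and whether the sequenced tumors were treated is not stated. All 10 genes differed between them, 9 higher in BURP-24BaSq, where 29% of 18283 genes tested were called (13.2% higher and 15.8% lower). The lines did not overlap in any gene of the set, as for 53.5% of all genes tested. Cldn1, Cldn3, Cldn7, Cldn8 and Cldn23 had at most 8 counts in any BURP-16SR tumor, and Cldn6 had none in BURP-24BaSq. Each was tested through its counts in the other line and could only be higher there. The 10 calls and the lack of overlap thus cannot be weighed against these shares. BURP-24BaSq was the line with the most Cldn1, at 207, 301 and 157 CPM, a log2 fold change of 8.91 (SE 0.39, edgeR adjusted p = 3.86e-05). Its Cldn4 was at 468, 288 and 429 CPM (log2 fold change 3.98, SE 0.50, edgeR adjusted p = 0.00136). Ocln was at 64.9, 63.4 and 51.2 CPM (log2 fold change 5.94, SE 0.37, edgeR adjusted p = 0.000102). Even Tjp1 was higher here, at 483, 481 and 398 CPM, with a log2 fold change of 1.10 (SE 0.16, edgeR adjusted p = 0.00238). Cldn6 had no count in BURP-24BaSq and was at least 69.8-fold lower than in BURP-16SR. All 10 calls held without any one of the 6 tumors. Of the general epithelial markers 4 were higher and 3 lower in BURP-24BaSq, and their sum was 8540 to 11621 CPM. All 6 endothelial markers were lower, with a sum of 50.1 to 70.3 CPM against 177 to 286 in BURP-16SR. Of the 6 fibroblast markers 2 were lower, with a sum of 805 to 1193 CPM against the 468 to 15145 of BURP-16SR. The part of these cells in the result was not tested. The lines differ in subtype and in sex, which cannot be told apart here.

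The Ba/Sq lines did not share 1 claudin level. Of the 9 genes with enough counts to be tested over the 6 Ba/Sq lines, all 9 differed among them (edgeR F test, adjusted p from 2.67e-05 for Cldn4 to 0.0286 for Cldn8). As 50.5% of the 20523 genes tested did so, lines differed in much of the transcriptome. Cldn6 had too few counts in most tumors and was not tested. Line means ran over 21.4-fold for Cldn4, 23.3-fold for Cldn1, 25.1-fold for Cldn7 and 12.4-fold for Cldn23. The widest were Cldn3 at 243-fold and Cldn8 at 1251-fold, whose lowest line means of 0.227 and 0.0129 CPM rest on few counts. The scaffold gene Tjp1 had the narrowest spread, 3.70-fold, followed by Ocln at 5.47-fold and Tjp3 at 10.9-fold. BURP-24BaSq had the highest mean of Cldn1, Cldn3, Cldn4 and Ocln, and BURP-17BaSq that of Cldn23, Tjp1 and Tjp3.

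**Figure D3:**
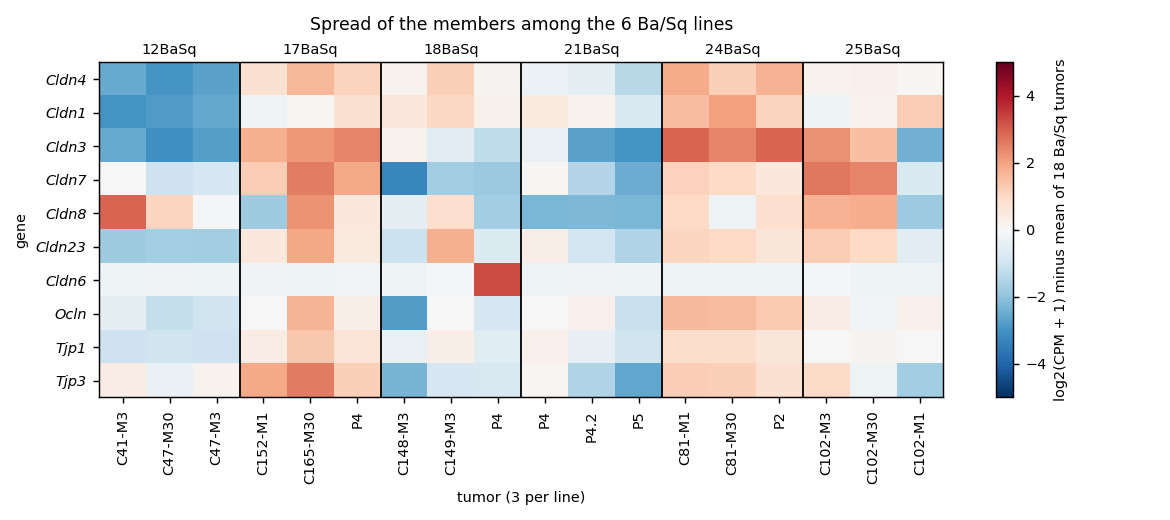
Levels of the 10 genes in the 18 Ba/Sq tumors, as log2(CPM + 1) minus the mean of the 18 tumors, red for higher and blue for lower. Columns are tumors in their 6 lines. BURP-12BaSq was blue for Cldn1, Cldn3, Cldn4 and Cldn23 but red for Cldn8 in tumor C41-M3, Cldn6 was red in tumor P4 of BURP-18BaSq alone, and C102-M1 differed from the other 2 tumors of BURP-25BaSq.

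BURP-12BaSq was the Ba/Sq line with the lowest summed claudin level per kilobase. Against the other 5 Ba/Sq lines 5 of 9 genes tested were lower and none higher, where 4.59% of 20523 genes tested were called (2.48% lower). The p-values take tumors as replicates, and those of BURP-12BaSq come from 1 line. No fit with line as the unit was run for this or another comparison of 1 Ba/Sq line with the rest. Cldn4 was at 21.1, 15.5 and 18.8 CPM against 48.0 to 468, a log2 fold change of -3.59 (SE 0.65, edgeR adjusted p = 0.00333). Cldn1 was at 8.13, 9.26 and 11.1 CPM against 41.4 to 301, a log2 fold change of -3.66 (SE 0.56, edgeR adjusted p = 0.00106). Neither overlapped, and these 2 calls held without any one tumor of the line. Cldn23, a claudin of which less is known, was at 1.21, 1.36 and 1.26 CPM against 1.66 to 27.8, a log2 fold change of -3.13 (SE 0.81, edgeR adjusted p = 0.0254). That made 3 genes with BURP-12BaSq below and no overlap, as in 2.47% of all genes tested. Cldn3 (-6.67, SE 1.99, edgeR adjusted p = 0.0484) and Tjp1 (-1.36, SE 0.39, edgeR adjusted p = 0.0422) overlapped with the other lines. The calls of Cldn3, Cldn23 and Tjp1 were lost without any one of the 3 tumors, with adjusted p between 0.119 and 0.217. Of 8 general epithelial markers 2 were lower as well, both without overlap, and 6 were not called. Their median log2 fold change was -2.53, against -1.76 for the 9 genes and -0.095 for all genes tested. The part of epithelial cells in the result was not tested.

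The other 4 genes tested were not called in BURP-12BaSq. Cldn8 was at 35.5, 9.30 and 3.59 CPM, and its mean of 16.1 was the highest of the 8 lines. The log2 fold change of Cldn8 was 1.43 (SE 1.20, edgeR adjusted p = 0.474), and the 3 tumors differed 9.89-fold among themselves. Cldn7 (6.16 to 13.6 CPM), Ocln (8.45 to 14.7) and Tjp3 (9.77 to 16.2) were not called either, with adjusted p of 0.360, 0.199 and 0.695 (edgeR).

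In BURP-18BaSq, Cldn7 was the gene called lower. It was at 0.549, 3.43 and 3.05 CPM against 1.66 to 90.1, with overlap, at a log2 fold change of -3.71 (SE 1.18, edgeR adjusted p = 0.0394). Of all genes 10.1% were called in this comparison, 4.09% lower, and the call was lost without any one of the 3 tumors (adjusted p from 0.0856 to 0.198). In the same line Cldn1 was at 107, 148.9 and 84.0 CPM and Cldn4 at 145, 294 and 142 CPM, and neither was called (edgeR adjusted p = 0.890 and 0.971). For BURP-17BaSq, BURP-21BaSq, BURP-24BaSq and BURP-25BaSq, none of 9 genes was called by edgeR against the other Ba/Sq lines, where 1.07%, 0.0195%, 1.65% and 0.273% of all genes were. At an unadjusted p under 0.05 there were 2, 1, 3 and 0 of 9, where 15.2%, 10.8%, 18.1% and 9.35% of all genes were. DESeq2 called 1 gene in BURP-21BaSq and none in the other 3 lines. With all 24 tumors in 1 edgeR fit, 4 genes were called higher in BURP-17BaSq (Cldn3, Cldn4, Cldn7 and Tjp3), 4 higher in BURP-24BaSq (Cldn1, Cldn3, Cldn4 and Ocln), Cldn7 higher in BURP-25BaSq and Cldn8 lower in BURP-21BaSq.

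The gene that DESeq2 called was Cldn8, which was nearly silent in BURP-21BaSq, with 0, 0.0387 and 0 CPM. All other Ba/Sq tumors were above it, at 0.394 to 35.5 CPM, as in 0.594% of all genes. By edgeR the adjusted p of Cldn8 was 0.124, and without C102-M1 the gene was called lower. C102-M1 was itself the lowest of these other tumors, with 0.394 CPM of Cldn8 against 15.4 and 16.1 in the other BURP-25BaSq tumors. It also had 0.562 CPM of Cldn3 against 39.6 and 22.8, and 7.65 CPM of Cldn7 against 90.1 and 78.8. Cldn4, at 132 CPM in C102-M1 and 145 and 150 in the other 2, did not set it apart. Leaving out C102-M1 and C102-M30 together left BURP-25BaSq with 1 tumor, and the filter then asked for enough counts in only 1 tumor. Cldn6 passed it in this way, although only tumor P4 of BURP-18BaSq had more than 0.134 CPM. That fit therefore cannot say whether the Ba/Sq lines differ in Cldn6.

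Tumors of 1 line also differed from each other, and by unequal amounts for each gene. The highest tumor was above the lowest by 1.13- to 2.13-fold for Cldn4 and by 1.37- to 2.77-fold for Cldn1, depending on the line. For Tjp1 it was 1.04- to 2.39-fold. Cldn3 ran from 5.42 to 0.309 and 0.0354 CPM in BURP-21BaSq. Cldn8 ran from 0.422 to 22.5 CPM in BURP-17BaSq, and Ocln from 2.06 to 20.9 CPM in BURP-18BaSq. Cldn3 differed 153-fold among the tumors of BURP-21BaSq and Cldn8 53.4-fold among those of BURP-17BaSq.

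No gene of the set was called between the sexes. None of 9 genes was called between the 3 male and the 3 female lines by edgeR or DESeq2, where edgeR called 2.31% of 17922 genes tested. Both tests took tumors as replicates, although each line has 1 sex and only 3 lines stand on each side. The absence of calls thus does not show equal levels. None of the 9 had an unadjusted p under 0.05, as 23.1% of all genes tested did. All groups overlapped, as all but 0.48% of all genes did. Cldn1 had a mean of 69.5 CPM (SD 51.7, n = 9) in tumors of male and 134 CPM (SD 83.3, n = 9) in tumors of female lines, a log2 fold change of -0.93 for male against female (SE 0.53, edgeR adjusted p = 0.308). Without BURP-17BaSq, 1 gene, Ocln, was called lower in the male lines.

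Few further claudins were called. Of 16 further claudin genes, 7 had enough counts to be tested in BURP-19NE against the Ba/Sq lines, and Cldn12 was the one called. It was at a mean of 58.9 CPM in BURP-19NE (52.1 to 66.2) and of 29.7 in the Ba/Sq tumors (16.5 to 52.2), a log2 fold change of 1.01 (SE 0.27, edgeR adjusted p = 0.00711), which was just past the fold required, and it was not called in 18 of 31 alternative settings. In BURP-16SR, Cldn5, known as the claudin of endothelium, was the one of 6 tested that was called, at a mean of 6.68 CPM against 2.07 (log2 fold change 1.76, SE 0.59, edgeR adjusted p = 0.0325), and 3 of 6 endothelial markers were called higher beside it. The Cldn5 call was lost in 7 of 30 alternative settings, with adjusted p up to 0.260. The part of endothelial cells in this was not tested.

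Per kilobase, the claudins made up different mixtures. In the Ba/Sq tumors Cldn4 took a median of 58.6% (27.0 to 72.2%) of the summed level of 23 claudins, and Cldn12 took 4.24%. In BURP-19NE, Cldn12 took 72.9% (SD 3.95, n = 3) and Cldn6 10.4% (SD 1.22, n = 3). In BURP-16SR, Cldn4 took 35.8% (SD 14.4, n = 3), Cldn12 26.8% (SD 0.650) and Cldn6 17.9% (SD 7.89). The sum itself was 19.0 CPM per kb (SD 1.34, n = 3) in BURP-19NE and 35.2 (SD 7.98) in BURP-16SR. That of BURP-12BaSq was 31.0 (SD 10.5), while the other Ba/Sq lines had means between 75.3 and 344. These shares are a description, chosen after the levels had been seen.

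**Figure D4:**
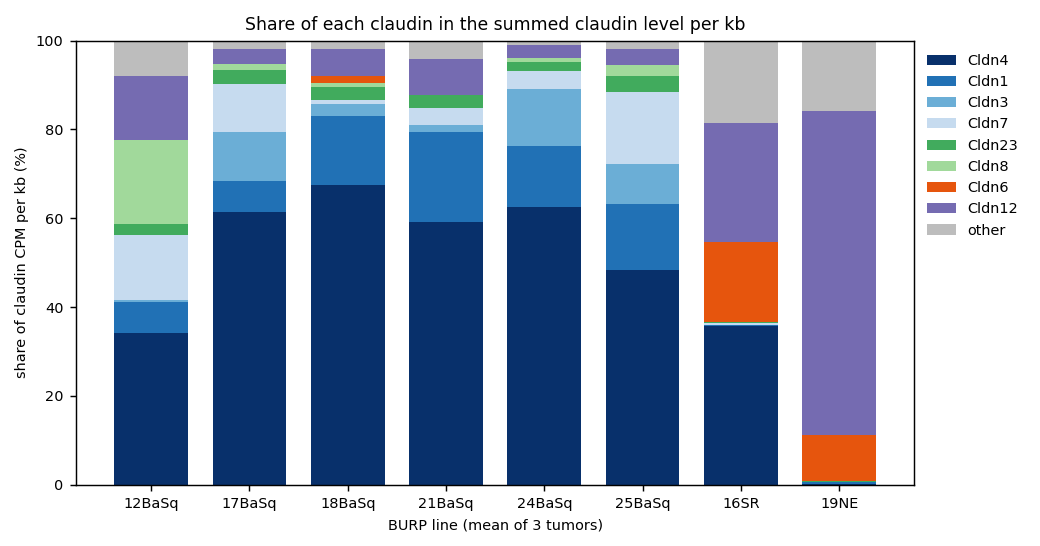
Share of each claudin in the summed CPM per kb of 23 claudins, as the mean of 3 tumors in each line. By these means Cldn4 formed the largest share in the 6 Ba/Sq lines and in BURP-16SR, though not in every tumor of BURP-12BaSq and BURP-16SR. Cldn12 formed the largest share in BURP-19NE, where it was 72.9%.

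Other membrane proteins of the tight junction fell in part. Of 11 genes, 6 were lower and none higher in BURP-19NE, and 6 were lower and 2 higher in BURP-16SR, beside 15% lower and 9.33% higher of all genes in BURP-19NE and 8.62% and 10.5% in BURP-16SR. With line as a random effect 2 of the 6 lower calls were kept in BURP-19NE and 3 of the 6 in BURP-16SR (limma adjusted p up to 0.572 and 0.530), and with counts summed per line 2 and 4. Both fits called Lsr in each line, and F11r and Cxadr in BURP-16SR. Lsr, which marks the corners where 3 cells meet, was at 75.1 CPM in the Ba/Sq tumors, 0.593 in BURP-19NE (log2 fold change -6.92, SE 0.71, edgeR adjusted p = 2.26e-07) and 2.25 in BURP-16SR (-4.98, SE 0.64, edgeR adjusted p = 5.95e-06). Marveld2, the tricellular relative of Ocln, fell by 3.67 (SE 0.80) in BURP-19NE and by 2.27 (SE 0.73) in BURP-16SR on the log2 scale, and was called in neither line by either of these fits (adjusted p up to 0.148 and 0.449). F11r, a junctional adhesion molecule, fell by 1.55 (SE 0.30) and 2.75 (SE 0.35). Jam2 and Esam, which are also made by endothelium, were the 2 that were higher in BURP-16SR, Jam2 with a log2 fold change of 3.20 (SE 0.42, edgeR adjusted p = 7.33e-06). Esam was not called by either fit (adjusted p up to 0.292).

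The genes of the cytoplasmic plaque went both ways. Of 13 plaque genes, 4 were higher and 1 lower in BURP-19NE, and 3 were higher and 2 lower in BURP-16SR. Cgn, which encodes the epithelial plaque protein cingulin, was lower in both, with log2 fold changes of -3.32 (SE 1.02) and -4.58 (SE 1.12), and it was called in neither with line as a random effect (limma adjusted p = 0.287 and 0.352) nor with counts summed per line. The lower calls, 1 and 2 of 13, stand beside 15% and 8.62% of all genes, and the higher ones beside 9.33% and 10.5%. Magi1 and Magi2, scaffolds of tight and other junctions, were higher in both, Magi1 with 2.08 (SE 0.32) and 1.03 (SE 0.35). The Magi1 call in BURP-16SR was lost in 11 of 31 alternative settings, with adjusted p up to 0.314. Amot, a binding partner of Patj, rose in BURP-19NE with 3.64 (SE 0.41, edgeR adjusted p = 7.89e-07). Of 9 genes of the apical polarity complexes, 4 were lower in each line and none higher, of which 1 in each line was kept with line as a random effect (limma adjusted p up to 0.0821 and 0.387). Crb3, the membrane anchor of one complex, had 1 count in all of BURP-19NE, against a Ba/Sq mean of 8.57 CPM.

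Regulators of the epithelial state were read from lists of 10 activators and 6 repressors. Whether they act on the 10 genes in these tumors was not tested. Of the activators 9 were lower in BURP-19NE and 9 in BURP-16SR, and none was higher. With line as a random effect 5 of the 9 were kept in each line (limma adjusted p up to 0.180 and 0.234), and with counts summed per line 8 of the 9. Grhl3 had no count in either line and was at least 480-fold and 290-fold below the Ba/Sq mean. Grhl2, which is known to drive Cldn4, was at 0.127 and 0.0699 CPM against 97.1. Esrp1, an epithelial splicing factor, had no count in BURP-19NE and 1 count in BURP-16SR, against a Ba/Sq mean of 174 CPM. The activators not called were Klf5 in BURP-19NE and Klf4 in BURP-16SR. Of the repressors 3 were higher in BURP-19NE and 4 in BURP-16SR, where 9.33% and 10.5% of all genes were. Zeb1 rose in both, with log2 fold changes of 3.14 (SE 0.51, edgeR adjusted p = 8.24e-05) and 2.93 (SE 0.52, edgeR adjusted p = 0.000265), as did Zeb2 and Twist1. In BURP-16SR the calls of Zeb2 and Twist1 were lost in 8 of 31 and 7 of 30 alternative settings (adjusted p up to 0.313 and 0.301), and none of the 4 higher calls was kept with counts summed per line. Snai1 rose in BURP-16SR with 2.84 (SE 0.52). Snai2 was the exception, lower in both, with -7.00 (SE 0.69) and -3.21 (SE 0.48). Bulk RNA does not tell which cells made the repressors. In BURP-16SR 3 of 6 fibroblast markers were called higher too, and the part of fibroblasts in the repressor levels was not tested.

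The genes most like the mean of the 10 over the 24 tumors, by Pearson's r of log2 levels, were Tmem184a (0.946), Mal (0.944), Ano9 (0.943), Pof1b (0.939) and Abhd17c (0.938). Across the 18 Ba/Sq tumors, Cldn4 went most closely with St14 (0.962) and Tmem159 (0.953), and Ocln with Cers3 (0.956) and Dsc2 (0.942). For Tjp1 they were Actn4 (0.945) and Rbm47 (0.943), and for Cldn7 Fer1l4 (0.964) and Pwwp2b (0.944). For Cldn1 they were Nipal1 (0.907) and 5730455P16Rik (0.899), for Cldn3 Wdr31 (0.912) and Tmod3 (0.911), for Cldn23 Trim16 (0.913) and Osbpl3 (0.903), for Tjp3 Rab27a (0.941) and Ikzf2 (0.898), and for Cldn8 Hist3h2ba (0.867) and Ckmt1 (0.860). Tumors of a line share their origin, so that these are descriptions over 6 lines and not over 18 independent samples.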

How the data were processed

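RNA of 24 allograft tumors was sequenced. Per the submitters' processing notes, the tools were CASAVA 1.8.2, STAR 2.6.0a and RSEM 1.3.1. The authors deposited expected counts per gene from RSEM on build GRCm38, in which 12.5% of the values were not whole. They were rounded here. Positions and exon lengths came from GENCODE M21, which held 99.8% of the gene identifiers. Each tumor was assigned to its line from its label, and subtype and sex of a line from the study. Counts were filtered with filterByExpr, scaled by TMM and tested with edgeR 4.0.16 in R 4.3.3 (quasi-likelihood test, Benjamini-Hochberg adjustment over all genes tested), with an adjusted p under 0.05 and, except in the F test, a fold above 2. A gene with few counts in 1 group passed the filter through the other group, in which it can only come out higher. The p-values measure the spread between tumors, which within a line come from 1 donor. Alternatives were DESeq2 1.42.0, DESeq2 size factors, other count filters, removal of ribosomal RNA genes, all tumors in 1 fit, sums per line, limma 3.58.1 with line as random effect and leaving out tumors. The edgeR step was tested on simulated data with independent tumors and changed genes of many counts. That test cannot speak for tumors that share a line or for genes of few counts. Levels between genes were compared per kilobase of exon. Total counts limit precision as given with the levels, and intervals cover counting error only. All 10 genes are named, as are genes of the fixed lists and the genes most correlated with them. The genes and lists were chosen with earlier results of these data known.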

Additional observations from a re-analysis of the deposited data

Results flagged for a closer look

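Over 20 groups of 9 tumors (each of the 10 genes in the male and the female Ba/Sq lines), 3 had 1 tumor far from the others by Dixon's test. Its limits hold for independent, normally distributed values. Here the 9 tumors came from 3 lines, and many had no Cldn6 count. How often chance alone gives such a tumor is therefore not known here. Cldn6 was at 10.2 CPM in tumor P4 of BURP-18BaSq, while the next highest of the male tumors had 0.0858 CPM. Cldn6 was at 0.134 CPM in tumor C102-M3 of BURP-25BaSq, which is 3 counts, and at most 0.0387 CPM in the other female tumors. Ocln was at 68.5 CPM in tumor C165-M30 of BURP-17BaSq, against 25.7 CPM in the next highest male tumor.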

How the results depend on the processing

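No paired analysis was possible because the replicate numbers were given in accession order and the labels tie no tumor of one line to a tumor of another. With at least 10 counts in every tumor, few of the 10 genes could be tested, and 0 of 1 was called in BURP-19NE against the Ba/Sq tumors, 1 of 2 in BURP-16SR, 1 of 2 between BURP-16SR and BURP-19NE, 2 of 2 between BURP-24BaSq and BURP-16SR, and 0 of 6 in BURP-18BaSq. With counts summed per line, 2 genes were called in BURP-19NE and 0 in BURP-16SR, and with line as a random effect 1 in each. Without a filter, 3 genes were called in BURP-12BaSq and 2 in BURP-18BaSq. DESeq2 called 2 in BURP-18BaSq and 1 in BURP-21BaSq. All 24 tumors in 1 fit gave 4 calls in BURP-17BaSq, 2 in BURP-18BaSq, 1 in BURP-21BaSq, 4 in BURP-24BaSq and 1 in BURP-25BaSq. Leaving out 1 tumor or line gave 4 to 9 calls in BURP-16SR, 2 to 5 in BURP-12BaSq, 0 to 1 in BURP-18BaSq, 0 to 1 in BURP-21BaSq and 0 to 1 between the sexes. Without C102-M30 and C102-M1, an alternative chosen after seeing the data, 1 gene was called in BURP-21BaSq. The log2 fold change of Tjp1 in BURP-19NE turned to -0.12 (edgeR adjusted p = 0.901) without replicate 1 of that line, and leaving out 1 tumor gave values from -0.12 to 0.25. Of 170 alternative levels, 15 moved by more than 1 SD between the tumors of a line. The causes were not tested. Counts of 0 to 3 limit what can be said of Cldn3, Cldn4, Cldn7, Cldn8, Cldn23 and Ocln in BURP-19NE.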
